A study of Mus musculus with 32 samples.

Results

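The shared regions of 2 migratory dendritic cell (DC) subsets, migDC2 and double-negative (DN) migDC, are stretches of open chromatin that both subsets held and that cDC1, cDC2 and migDC1 held in at most 1 library. They were chosen from peak lists of 32 libraries on the 19 autosomes. A consensus region was a stretch of 100 bp or more covered by peaks of at least 3 lists, and a library counted as holding it where 50% or more of the region, or of the peak, lay in the overlap. A shared region was called in at least 5 of 6 floxed migDC2 and at least 5 of 6 DN migDC libraries, and in at most 1 of the 16 libraries of the other subsets. This rule found 660 of 88757 regions, a share of 0.744%. The calls by subset therefore describe the choice and were not tested.

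DC were sorted from skin-draining lymph nodes of mice and their open chromatin was mapped by Omni-ATAC-seq, a transposase-based assay whose adapters enter DNA where it is accessible. The floxed cohort held CD11cCREneg/IFNgr1flfl mice (Cre-negative) and CD11cCREpos/IFNgr1flfl mice (Cre-positive), so that all of its libraries, controls included, carried floxed Ifngr1 alleles; Cre was driven by the CD11c promoter, which is active in DC and in some other leukocytes. There were 3 libraries per genotype of migDC2, DN migDC, cDC1 and cDC2 and 2 per genotype of migDC1. A germline cohort gave migDC2 from 2 WT and 2 IFNgr1-/- libraries, whose calls the limits of the rule did not use, although their peaks helped to define the consensus regions. The study asked how signalling through the interferon-γ (IFN-γ) receptor shapes DC chromatin. Ages are not given, and the labels do not say whether replicates are separate animals, so spread between libraries may be partly technical.

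Migratory DC carry antigen from the skin to the node and reach it in a mature state, with CCR7 guiding them and costimulatory molecules such as CD40 at the surface. The migDC2 subset is marked by CD11b and migDC1 by CD103, while DN migDC carry both marker names in their source label, and DN is read here as double negative. Distal open regions within and between genes often act as enhancers, and their use differs more between cell types than that of promoters. Regions were assigned to a gene by distance alone, so the gene named is a neighbour and need not be a target.

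The peak lists were of unequal length. Floxed migDC2 lists held 53688 to 72986 autosomal peaks and DN migDC lists 55912 to 73627, against 37812 to 68217 in the 16 other floxed lists and 32088 to 41759 in the germline lists. The library DN migDC Cre-positive 1 had narrow peaks, with a median width of 401 bp, as did cDC1 Cre-negative 2 with 389 bp. Without both libraries the rule found 772 regions, the 660 among them. The titles fall into 2 series, bare numbers and a letter with a number, whose meaning the labels do not state. All 12 resident libraries have numbered titles and all 4 migDC1 libraries lettered ones, while migDC2 and DN migDC have 2 numbered and 4 lettered libraries each. Marker genes of migratory DC (Ccr7, Fscn1, Ccl22, Cd40 and Relb) had 49 regions, of which 85.7% to 95.9% were called in migDC2 libraries, 69.4% to 85.7% in DN migDC, 49.0% to 69.4% in migDC1 and 28.6% to 49.0% in resident subsets. Regions of cDC1 markers were called at 62.1% to 84.2% in cDC1, at 42.1% to 57.9% in migDC2 and at 49.5% to 61.05% in DN migDC. For cDC2 markers the range was 38.3% to 63.8% in cDC2 and 31.9% to 57.45% in cDC1, with overlap. It was 57.45% to 78.7% in migDC2, so these markers did not set resident cDC2 apart. Regions of B cell markers ranged from 33.3% to 79.5% in DN migDC and from 17.9% to 64.1% in migDC2, and those of plasmacytoid DC markers from 75.8% to 97.0% and from 51.5% to 75.8%. T cell marker regions reached at most 83.3% in DN migDC and 73.3% in migDC2, and those of NK and ILC markers 81.8% and 84.85%. Other cells within the DN migDC gate, and their part in the results, were not tested.

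Few shared regions lay at promoters, so the sequences that could be read are a small and unusual fraction of them. Of the RefSeq promoter windows (250 bases before to 50 after a gene's start, assembly GRCm38.p6), 25 were touched by a shared region, and 13 were covered whole. Of these 13, 5 are printed in full as examples with and without the motifs searched, picked after their values were seen. They are read 5′ to 3′ on the strand of the gene, in lower case, with searched motifs in capitals. Adra2a encodes an adrenergic receptor (chr19:54045009-54045308, plus strand), Chst8 a sulfotransferase (chr7:34812662-34812961, minus strand), Pik3cd the catalytic delta subunit of phosphoinositide 3-kinase of leukocytes (chr4:149676040-149676339, minus strand), Iqca an IQ-motif protein (chr1:90153387-90153686, minus strand), and Gm33315 is a gene model near Auh (chr13:52829022-52829321, plus strand).
Adra2a: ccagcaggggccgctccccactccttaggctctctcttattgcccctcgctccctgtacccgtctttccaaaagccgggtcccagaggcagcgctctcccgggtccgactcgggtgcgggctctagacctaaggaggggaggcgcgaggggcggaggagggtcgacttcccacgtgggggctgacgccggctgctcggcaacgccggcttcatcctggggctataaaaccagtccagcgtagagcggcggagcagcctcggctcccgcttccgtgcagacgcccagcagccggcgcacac
Chst8: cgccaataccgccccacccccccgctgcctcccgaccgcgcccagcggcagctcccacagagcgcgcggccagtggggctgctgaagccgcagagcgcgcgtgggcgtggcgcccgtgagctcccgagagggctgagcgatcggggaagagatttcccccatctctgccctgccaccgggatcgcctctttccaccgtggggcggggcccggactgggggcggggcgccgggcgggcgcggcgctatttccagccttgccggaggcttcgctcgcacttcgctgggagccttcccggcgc
Pik3cd: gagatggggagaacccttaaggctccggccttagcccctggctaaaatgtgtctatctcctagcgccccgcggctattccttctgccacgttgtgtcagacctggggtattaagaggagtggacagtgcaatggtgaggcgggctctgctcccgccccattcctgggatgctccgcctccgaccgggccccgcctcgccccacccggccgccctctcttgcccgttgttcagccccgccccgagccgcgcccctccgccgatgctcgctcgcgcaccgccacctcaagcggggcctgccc
Iqca: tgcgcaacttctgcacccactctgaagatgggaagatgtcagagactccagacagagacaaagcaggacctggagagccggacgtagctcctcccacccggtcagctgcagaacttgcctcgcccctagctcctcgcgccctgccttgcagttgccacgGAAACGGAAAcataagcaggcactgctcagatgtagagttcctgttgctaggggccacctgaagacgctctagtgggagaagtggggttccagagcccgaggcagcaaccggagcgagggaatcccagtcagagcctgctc
Gm33315: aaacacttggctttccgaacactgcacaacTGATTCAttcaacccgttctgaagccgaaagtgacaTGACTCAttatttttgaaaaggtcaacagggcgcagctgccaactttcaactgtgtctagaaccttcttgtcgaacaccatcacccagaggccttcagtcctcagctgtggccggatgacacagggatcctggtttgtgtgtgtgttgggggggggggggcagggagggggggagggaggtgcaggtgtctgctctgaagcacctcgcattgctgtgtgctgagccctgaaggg
The capitals mark an interferon regulatory factor element (GAAA, any 2 bases, GAAA) in Iqca and 2 AP-1 elements (TGANTCA) in Gm33315. Both strands were searched. The AP-1 letters were found in 2 of the 25 windows (8.0%), against 7.85% of all 31396 promoter windows; both are overlapping windows of Gm33315 with the same elements, so they stand for 1 shared region. The interferon regulatory factor letters were found in 3 (12%), against 3.46%, and these stand for 2 shared regions, since the windows of Iqca and 4930434B07Rik hold the same element on opposite strands. A CEBP element (TTGCNNAA) was found in 3 (12% against 10.9%) and a RUNX element (TGTGGTT) in 1 (4.0% against 5.32%). Whole windows were searched, so a match in a window covered in part can lie outside the shared region. The CEBP match of Hrh1 does, since the shared region covers only the last 102 bases of that window. No window held the letters searched for NF-kB (GGGA, any base, TTTCC), PU.1 (GAGGAAGT) or KLF (GGGTGTGG), which 0.417%, 3.25% and 3.57% of all windows hold. These counts are of matching letters only and rest on very few windows.

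The peaks at these promoters ranged from weak to middle strength. The strength of a peak is given here as its rank within its own list, as a percentile in which 100 is the strongest peak. The rank follows the deposited signal, and its dependence on peak width was not tested. The Adra2a region was called in 6 of 6 migDC2 and 6 of 6 DN migDC libraries, in none of the 16 others and in all 4 germline libraries. Its rank ran from 45.1 to 71.6 in migDC2 (median 62.2) and from 1.90 to 75.04 in DN migDC (median 50.2). The Chst8 region had median ranks of 54.4 and 54.6 in the same subsets, and was called in all 12 of their libraries and 3 germline ones. The Iqca region was called in 5 of 6 migDC2 and 6 of 6 DN migDC libraries and in no other floxed or germline library, with median ranks of 41.1 and 53.2. The Pik3cd window belongs to a start inside the gene body, 26194 bp from the nearer gene end, and its region ranked at 43.0 and 33.9. The Gm33315 region was the weakest of the 5, with medians of 30.3 in migDC2 and 22.6 in DN migDC.

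A shared region 36840 bp from Polg (chr7:79504751-79505438) covered the whole hairpin of Mir9-3, which encodes miR-9, a microRNA known from neural and immune cells. It was called in 5 of 6 migDC2, 5 of 6 DN migDC, no other floxed and 2 germline libraries, and its median rank was 39.7 in migDC2 and 37.5 in DN migDC. The mature sequences from RefSeq, shown because they identify the transcript whose gene lies in the region, carry the seed (bases 2 to 8) in capitals.
miR-9-5p: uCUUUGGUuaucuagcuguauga
miR-9-3p: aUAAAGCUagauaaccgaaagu
Whether the microRNA was expressed cannot be read from open chromatin.

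The choice of the 660 regions gave the following pattern of calls. The share called was 86.7% at the lowest, 98.5% at the median and 99.7% at the highest of the 6 floxed migDC2 libraries, and 85.9%, 91.7% and 98.6% in DN migDC. It was 0, 9.55%, 10.2% and 12.1% in the 4 migDC1 libraries, at most 5.0% in cDC2 and at most 1.52% in cDC1. All 12 libraries of the chosen subsets were thus far above the 16 others, as the rule requires. Within the limits, 501 regions were called in 6 of 6 migDC2 and 350 in 6 of 6 DN migDC libraries, 375 were called in none of the 16 others, and 156 met all 3 of these. Of the 285 regions with 1 call among the others, 210 had it in migDC1, 56 in cDC2 and 19 in cDC1. At the edge of the rule, 35 regions sat at every limit. Just outside it, 155 regions missed through 4 of 6 calls in migDC2, 288 through 4 of 6 in DN migDC and 394 through a second call among the others, 297 of these with both calls in migDC1.

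**Figure D1:**
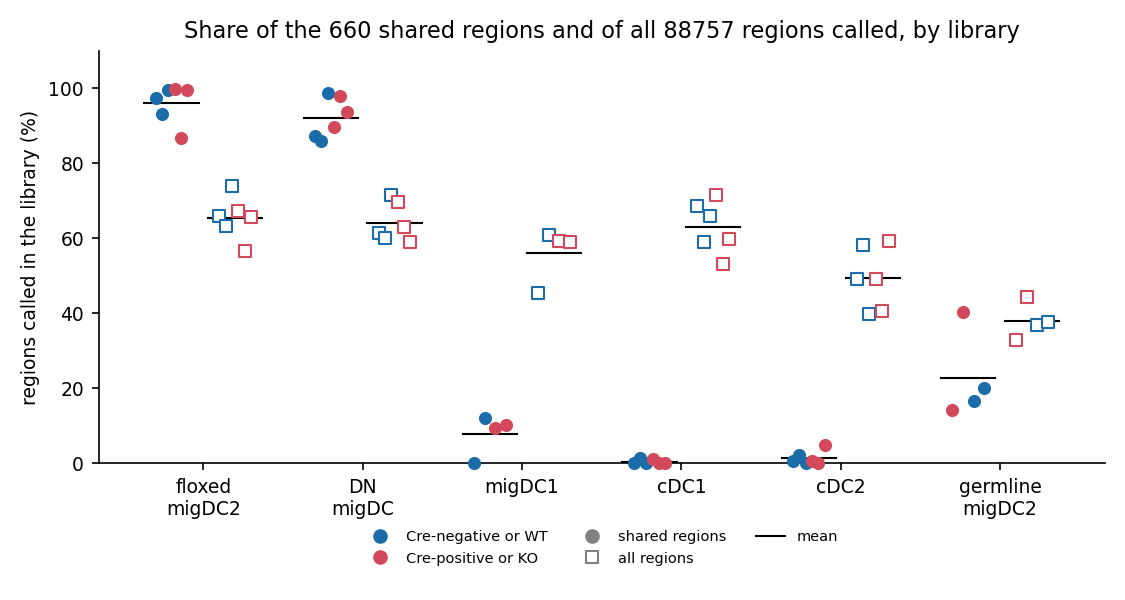
Share of regions called in each library (y axis, percent), by subset (x axis); filled circles are the 660 shared regions, open squares all 88757 regions, bars the means over libraries, and colours the genotype. The shared regions lie between 85.9% and 99.7% in migDC2 and DN migDC and at or below 12.1% in the other floxed subsets, as chosen, and between 14.2% and 40.5% in the germline migDC2 libraries.

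Most shared regions were weak peaks. Over the 12 libraries their median rank had a median of 31.0 and ran from 6.70 to 80.1, whereas the 45318 regions called in at least 5 of 6 libraries of each subset, whatever the others did, had a median of 61.1. The median shared region stood at place 42913 of its list, which is past the end of the shortest floxed list (37812 peaks, cDC2 Cre-negative 3), and 224 of the 660 stood past the median length of the cDC2 lists. For these 224, closed chromatin and a shorter list cannot be told apart in cDC2. Only 6 stood past the median length of all 16 other lists. The cDC1 lists held 61041 peaks on average, close to the 61957 of floxed migDC2. Their share of the shared regions, at most 1.52%, was kept low by the rule and says nothing on list length.

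When every floxed list was shortened to its 37812 strongest peaks, 253 regions met the rule, of which 34 were among the 660 (5.15% of the 660 and 13.4% of the 253). The other 219 were called in more than 1 of the 16 other libraries with full lists, in a median of 4. With shortened lists 140 of the 660 were still called in at least 5 of 6 migDC2 and 65 in at least 5 of 6 DN migDC libraries, 162 were called in no library of either subset, and 11 had a call in the 16 others, 1 at most. The 34 regions that met the rule at both lengths are the part of the set that does not depend on long lists. The 34 were singled out after their values were seen. They include regions at Cd40, Il1r1, Rasgrp1, Tns1, Grk3, Qsox2, Shb, Tbx3, Plxnd1, Vezt, Myo1e and Pmfbp1, 2 at Myo10, and 7 with no protein-coding gene within 50000 bp. Of the 34, 3 lay at gene ends, 16 in gene bodies and 8 distal to a gene.

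A second check took libraries whose calls had no part in a choice, although their peaks helped to define the consensus regions. Chosen with the lettered libraries of migDC2 and DN migDC alone (at most 1 of 4 missing in each), 1117 regions met the rule, the 660 among them. In the held-out numbered libraries 83.9% and 90.5% of the 1117 were called in migDC2, against 66.0% and 67.3% of all regions. In held-out DN migDC the shares were 59.9% and 68.8%, against 61.4% and 69.6% of all regions. In this split the migDC2 libraries were above the share of all regions and the DN migDC libraries slightly below it. All regions were not matched to the 1117 in strength or in calls elsewhere, so their share is not a chance level. With the numbered libraries alone, 1096 regions were chosen, and the other split was mixed in both subsets. In held-out migDC2 they were called at 54.0%, 47.2%, 80.8% and 73.1%, where all regions gave 63.35%, 56.5%, 73.8% and 65.8%. In held-out DN migDC they were called at 51.1%, 72.6%, 72.5% and 59.2%, where all regions gave 59.96%, 63.0%, 71.5% and 58.9%. Regions chosen in the same way but with no limit on the other subsets were called at 89.5% to 98.8% in held-out libraries. These shares are descriptions, and the part of peak strength in them was not tested.

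The strongest shared region lay near Cd40, the costimulatory receptor of the TNF receptor family that T cells engage through CD40 ligand. It spans chr2:165076176-165080107 (3932 bp), 4522 bp from the nearer end of the gene. Its rank was 83.5, 84.6, 89.4, 91.0, 95.1 and 99.9 in the 6 migDC2 libraries and 38.8, 58.3, 60.2, 66.5, 72.7 and 76.6 in DN migDC. No value of DN migDC reached the lowest of migDC2. None of the 16 other libraries and 3 of 4 germline libraries held it, the latter at ranks of 58.6, 77.8 and 90.3. A second wide region, chr2:165084077-165088260 (4184 bp), 12423 bp from the same gene, was called in 6 of 6 migDC2, 5 of 6 DN migDC and no other floxed library. It ranked from 44.8 to 83.1 in migDC2 and from 2.11 to 42.2 in DN migDC, again without overlap.

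Il1r1, the signalling receptor of interleukin-1, held a region in its body (chr1:40274980-40275944) that ranked from 72.1 to 82.5 in migDC2 and from 59.8 to 71.4 in DN migDC, was absent from the 16 others and was present in all 4 germline libraries. Rasgrp1, an activator of Ras downstream of diacylglycerol, held a region (chr2:117333028-117333713) with overlapping ranks, 62.5 to 75.3 in migDC2 and 62.1 to 77.5 in DN migDC. Its call among the others was in migDC1, at a rank of 8.50. The region at an end of Grk3, a kinase of G-protein-coupled receptors (chr5:112911316-112912167), ranked from 68.9 to 79.7 in migDC2 and from 32.6 to 74.2 in DN migDC. Shb, an SH2-domain adaptor of tyrosine kinase receptors, had higher medians in DN migDC (70.0) than in migDC2 (61.5), with overlap. Qsox2, a sulfhydryl oxidase, held 2 shared regions among its 5 regions, with median ranks of 69.3 and 66.7 in migDC2 and of 62.8 and 33.0 in DN migDC.

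Tns1 encodes tensin 1 of focal adhesions, and its region (chr1:73947263-73947993) ranked at a median of 70.2 in migDC2 and 62.7 in DN migDC and was in all 4 germline libraries. Plxnd1, a receptor of semaphorins, had medians of 71.2 and 54.0. Myo1e, an unconventional myosin at the membrane, went the other way, with 58.4 in migDC2 and 65.3 in DN migDC. Myo10, a myosin of filopodia, held 2 shared regions 9508 and 15084 bp from a gene end, each called in all 12 libraries, in none of the 16 others and in all 4 germline libraries. Pmfbp1, known from sperm development, was the only gene of the 12 strongest regions with every DN migDC library, at 64.8 to 72.6, above every migDC2 library, at 46.8 to 61.7. Tbx3, a T-box transcription factor, had a region covering a gene end with medians of 63.2 in migDC2 and 66.2 in DN migDC.

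**Figure D2:**
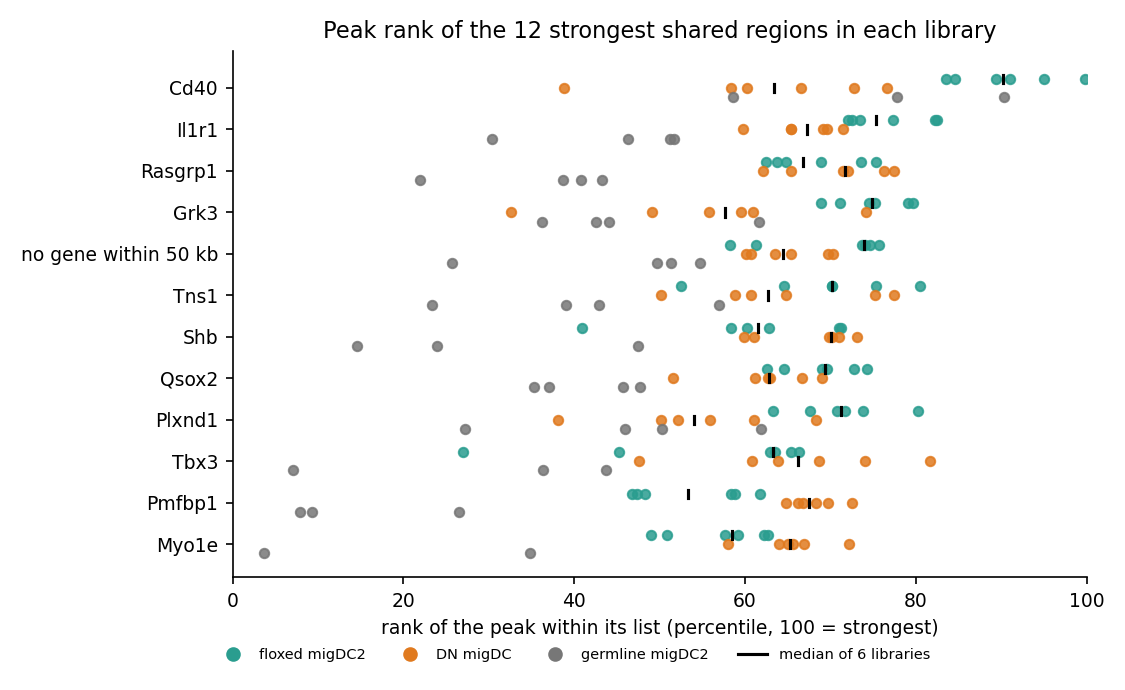
Rank of the peak within its list (x axis, percentile, 100 the strongest) in each library for the 12 shared regions with the highest median rank over 12 libraries (y axis, by assigned gene); green points are floxed migDC2, orange DN migDC, grey germline migDC2, and black ticks medians of 6. Cd40 and Il1r1 are separated with migDC2 above DN migDC, and Pmfbp1 with DN migDC above migDC2, while the other 9 overlap.

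The list of adhesion, axon guidance and motility genes held 13 shared regions among its 727 regions (1.79%), spread over 11 of its 44 genes with regions, where 0.688% of all regions with a gene were shared. Its leading gene was Pard3b, a cell polarity protein, with 3 of 31 regions. The other genes held 1 each, among them Efna5 (the ligand ephrin-A5), Itgb1 (integrin beta 1), Cdh1 (E-cadherin), Plxnd1 and Myo1e. The Efna5 region had ranks of 46.3 to 61.9 in DN migDC and 7.12 to 38.6 in migDC2. DN migDC was thus above every migDC2 library at this gene.

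Genes of DC maturation and migration held 11 shared regions among 483 (2.28%), in 5 of 35 genes. Ankrd33b, an ankyrin repeat protein, had 4 of its 37 regions shared, Samsn1, an adaptor of haematopoietic cells, 2 of 33, Spred1, an inhibitor of Ras-ERK signalling, 2 of 21, Cd40 2 of 14 and Slco5a1 (a solute carrier, named after its values were seen) 1. The gene Ccr7, which steers DC to the node, held 13 regions and no shared one. The lists were chosen with earlier results of these data known, so a share above that of all genes is a description.

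Regions of the Langerhans and skin DC list were shared in 3 of 214 cases (1.40%). They lay at Tgfbr2, a receptor of TGF-β, at Cdh1, the adhesion molecule that ties Langerhans cells to keratinocytes, and at Skil, an inhibitor of TGF-β signalling. The Tgfbr2 region (chr9:116152787-116153308) was called in all 12 libraries and in no other library, germline ones included, with medians of 45.3 in migDC2 and 39.7 in DN migDC. Cd207 and Epcam, which mark Langerhans cells, had 6 and 12 regions and no shared one.

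The cDC2 list held 2 shared regions among 212 (0.943%), both in the body of Zeb2, a transcription factor required for cDC2 development. The stronger (chr2:45028094-45028939) ranked from 53.8 to 69.2 in migDC2 and from 9.20 to 49.6 in DN migDC, without overlap. The cDC1 list held none of 300. Irf4, Klf4, Mgl2, Sirpa and Itgam, genes of the cDC2 lineage, and Xcr1, Irf8 and Itgae, genes of the cDC1 lineage, had 5 to 33 regions each and no shared one.

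In the IFN-γ pathway 3 of 216 regions were shared (1.39%), at Jak2, the kinase of the IFN-γ receptor, Socs3, a feedback inhibitor of cytokine signalling, and Ptpn2, a phosphatase that acts on JAK and STAT proteins. The Socs3 region (chr11:117974264-117974710) ranked from 27.1 to 50.1 in migDC2 and from 1.85 to 24.6 in DN migDC, without overlap. Among IFN-γ-induced genes 1 of 264 regions was shared (0.379%), at Ifi47, an immunity-related GTPase. Ifngr1 had 16 regions and none shared, and peak lists do not show whether its floxed exon was deleted.

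Other lists held few shared regions. The transcription factor list held 3 of 995 (0.302%), at Klf9, Maf and Prdm1. It is named for the AP-1, KLF, RUNX, EGR, CEBP and nuclear receptor families but is not limited to them. Tnfsf4 (OX40 ligand) held the single shared region of the 206 of type 2 immunity (0.485%). S1pr1, the sphingosine-1-phosphate receptor of lymphocyte egress, held that of the 194 on the list named for chemokines and their receptors (0.515%). H2-Oa, a modulator of peptide loading, held that of the 105 of MHC class II (0.952%). The S1pr1 region ranked from 30.4 to 50.1 in migDC2 and from 10.9 to 29.0 in DN migDC, without overlap. Socs3 also held the only shared region of the 221 of the tolerance list (0.452%).

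Markers of other cell types held 4 shared regions. B cell markers held 2 of 56 (3.57%), the highest share of the lists though on a count of 2, at Pax5, the transcription factor of B cell identity, and Fcer2a, the low-affinity IgE receptor CD23. The Pax5 region was among the weakest, with medians of 7.72 in migDC2 and 31.5 in DN migDC, and was called in 5 of 6 libraries of each. Monocyte and macrophage markers held 1 of 89 (1.12%), at Adgre1 (F4/80), and keratinocyte and stromal markers 1 of 64 (1.56%), at Pdgfra. These shares are above the 0.688% of all regions with a gene, and the part of other cells in them was not tested. T cell, NK and ILC, neutrophil, plasmacytoid DC, mast cell and ubiquitously active genes held none of their 64, 62, 23, 119, 33 and 70 regions.

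Shared regions mostly stood alone. The 553 with a gene fell on 500 genes, of which 455 held 1, 40 held 2, 2 held 3 and 3 held 4. The genes with 4 were Cd109, Efnb2 and Ankrd33b. At Cd109, a GPI-anchored protein that binds TGF-β, 4 of 7 regions were shared, and all 4 were called in 12 of 12 libraries of the chosen subsets and in none of the 16 others. The region that covers a gene end of Cd109 (chr9:78615370-78616127) had median ranks of 41.1 in migDC2 and 43.7 in DN migDC. At Efnb2, the ligand ephrin-B2, 4 of 11 regions were shared, and the region at its start was called in all 28 floxed libraries. Cers6, a ceramide synthase, held 3 of 33. Those with 2 included Dtx2, Igsf3, Stk4, Prkce, Auh, Tbc1d16 and Ubl3, besides Qsox2, Myo10, Zeb2, Cd40, Samsn1 and Spred1.

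**Figure D3:**
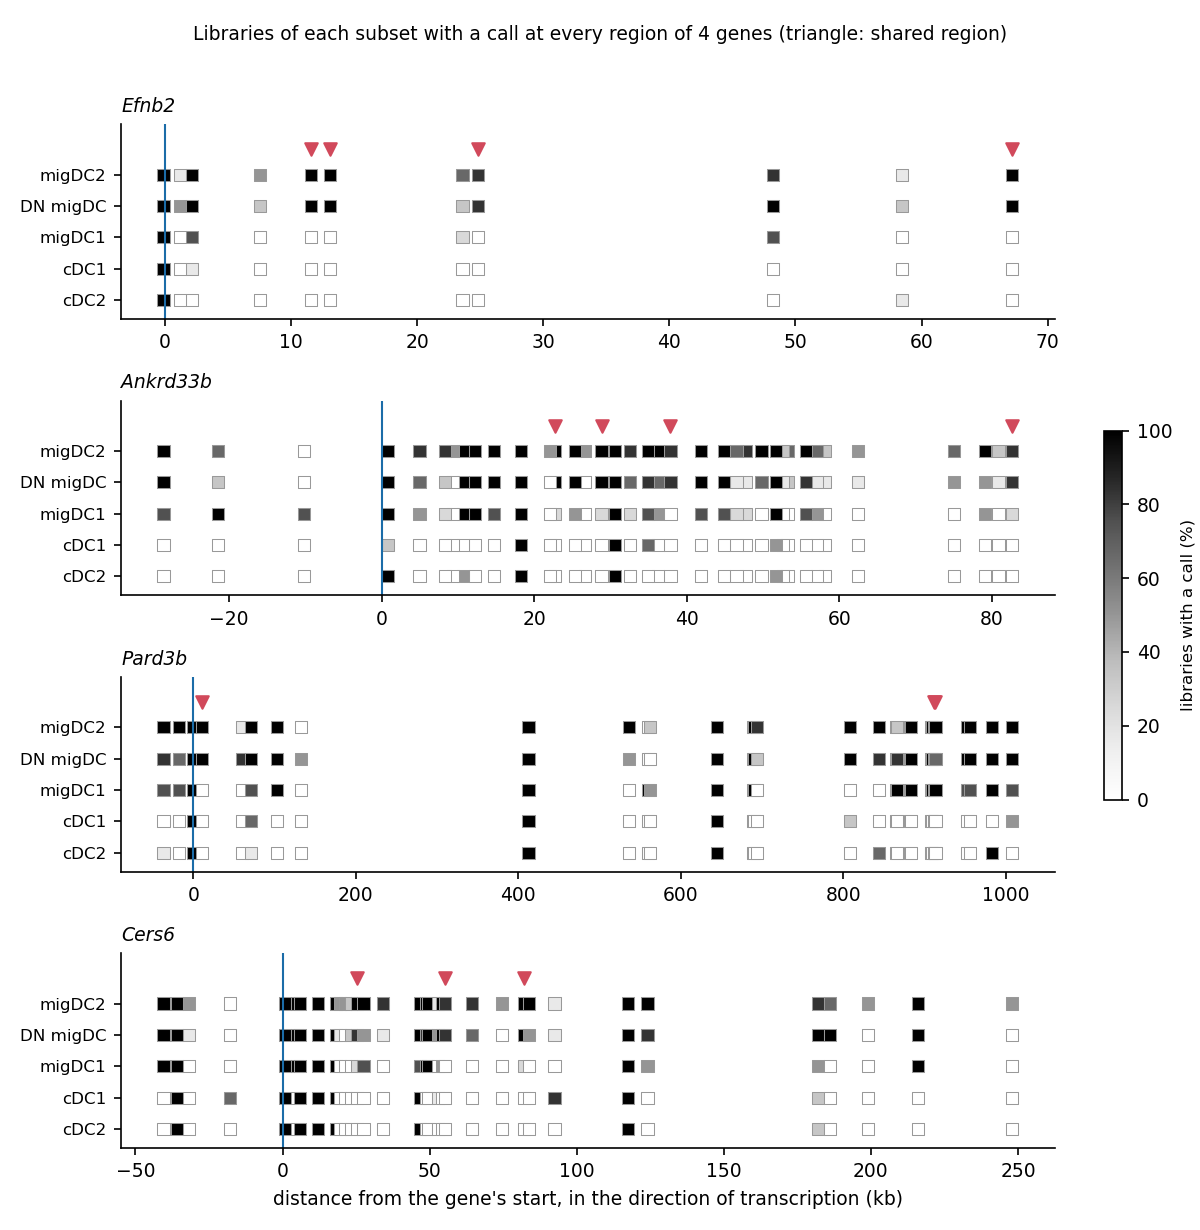
All consensus regions of 4 genes, placed by distance from the gene's start in the direction of transcription (x axis, kb), with the share of libraries of each subset that called them (grey scale, percent) and red triangles over shared regions. The region at the start of Efnb2 is dark in every subset, while its 4 shared regions are dark in migDC2 and DN migDC and white in the other subsets.

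Genes with a shared region varied in how many of their regions were called in every floxed library. Of their 5632 regions 19.1% were called in all 28 floxed libraries, against 27.2% of all regions with a gene, and 7.0% in at least 15 of 16 migratory and at most 1 of 12 resident libraries, against 5.07%. At Ankrd33b 2 of 37 regions were called in all 28 libraries and 5 followed that migratory pattern. The shared regions there lay among regions that migDC1 also held. Other genes, among them Fcer2a and Iqca, had the shared region as their only region. Cd109 and Efna5, with 7 and 13 regions, had none that was called in all 28 libraries.

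By position, shared regions lay away from gene ends. Only 6.36% were within 1000 bp of an end of a protein-coding gene, against 17.2% of all regions, 51.5% were in gene bodies against 46.5%, 25.9% were distal against 26.9%, and 16.2% had no gene within 50000 bp against 9.43%. The 5070 regions shared by all 3 migratory subsets had 5.40% at gene ends and 12.8% with no gene, so that low shares of gene ends were common to both sets. Of the 632 shared regions on chromosomes with listed starts, 21 (3.32%) held a RefSeq start, against 12.2% of all regions, and their median distance to a start was 23603 bp against 13676.5 bp. Shared regions were narrower, with a median of 480 bp against 570 bp. Chromosome 2 held the most (56) and chromosome 19 the fewest (21), and 17 pairs of neighbours lay within 10000 bp.

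**Figure D4:**
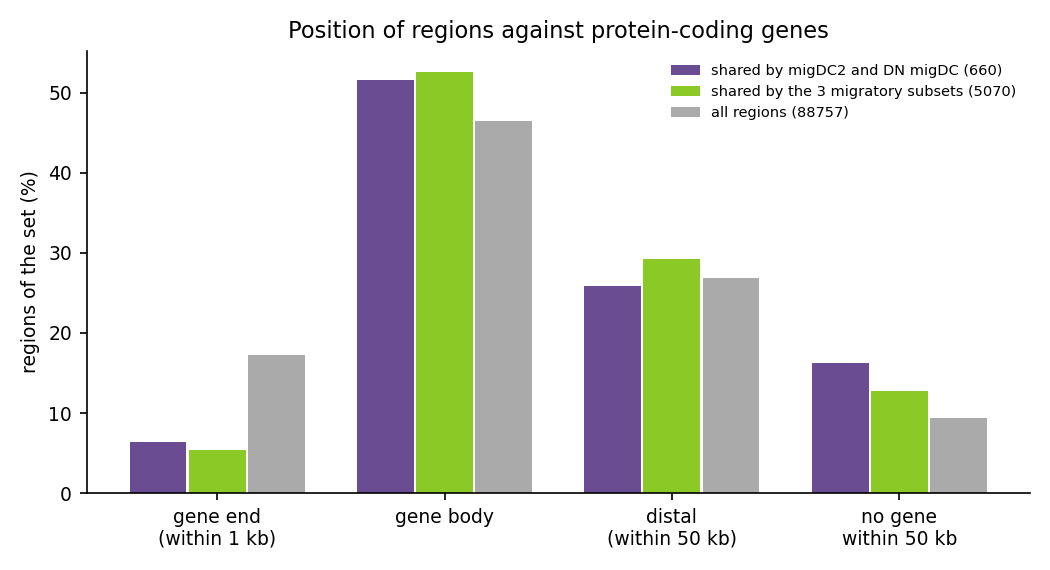
Position of regions (x axis, class against protein-coding genes; y axis, percent of the set) for the 660 shared regions, the 5070 regions shared by the 3 migratory subsets and all 88757 regions. Both selected sets have fewer regions at gene ends (6.36% and 5.40%) than all regions (17.2%).

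The rule asked for calls in both subsets but not for equal strength, so strength could be compared. Among the strongest 20000 peaks of each list, 14, 15, 15, 18, 20 and 24 of the 660 regions were found in the 6 migDC2 libraries and 6, 6, 7, 9, 10 and 17 in DN migDC. The mean share was 2.68% ± 0.580 (SD, n = 6) and 1.39% ± 0.631 (SD, n = 6), and the 2 ranges overlapped through the library of narrow peaks, DN migDC Cre-positive 1, with 17. Over all 88757 regions the mean share was 22.1% and 21.7%, which equal list length holds close together in any case. Among the strongest 30000 peaks the counts were 81 to 115 in migDC2 and 57 to 76 in DN migDC, and the ranges did not overlap. Over all regions the shares at 30000 peaks were 32.3% to 33.4% in migDC2 and 31.4% to 32.9% in DN migDC, with overlap. Equal list length also holds these shares close together. Within lettered libraries the shares were 15.8% ± 1.94 (SD, n = 4) and 9.66% ± 1.06 (SD, n = 4), and within numbered libraries 12.3% and 16.4% in migDC2 and 9.55% and 11.5% in DN migDC. No shared region was found among the strongest 20000 peaks of cDC1, cDC2 or migDC1, which follows from the rule.

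**Figure D5:**
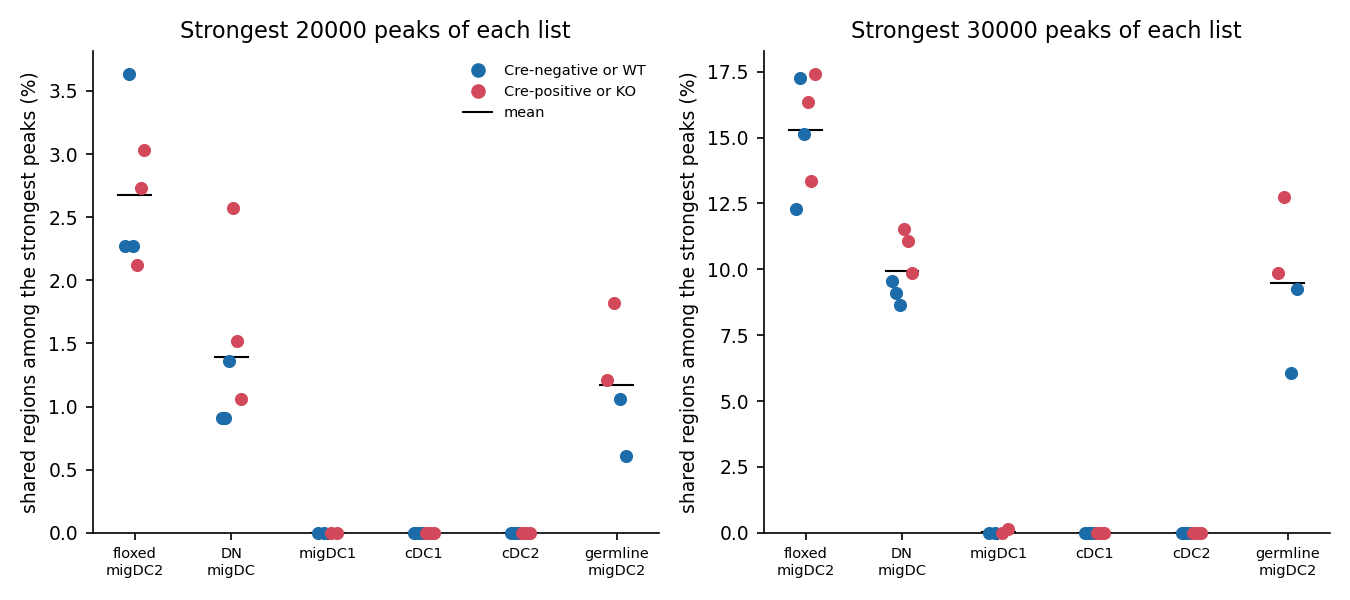
Share of the 660 shared regions found among the strongest 20000 (left) and 30000 (right) peaks of each list (y axis, percent), by subset (x axis), with a point per library, colours for the genotype and bars for means. At 30000 peaks the migDC2 libraries, from 12.3% to 17.4%, lie above the DN migDC libraries, from 8.64% to 11.5%.

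For each region, calls among the strongest 20000 peaks were then counted over libraries and set against each other by a two-sided exact conditional test stratified by genotype. Over 5195 tested regions none passed an adjusted p of 0.05 (Benjamini-Hochberg), and the smallest adjusted p was 0.151. With 3 libraries per genotype and subset, a pass needed many regions at the smallest possible p together. The lack of a pass therefore does not show that the subsets are alike. At an unadjusted p under 0.05, 3.98% of tested regions were higher in DN migDC and 6.29% lower. Of the 20 shared regions tested, 6 leaned higher and 14 lower in DN migDC, where 2068 and 2413 of all 5195 did, and 2 passed the unadjusted threshold, both lower. The first was a region with no gene within 50000 bp (chr15:62328224-62329370), called in 6 of 6 migDC2 and 0 of 6 DN migDC libraries (exact p = 0.005, the smallest this design can give, adjusted 0.151). It ranked from 70.2 to 79.6 in migDC2 and from 21.2 to 53.5 in DN migDC. The other was Grk3, with 6 of 6 against 1 of 6 (exact p = 0.02, adjusted 0.195). Cd40 had 6 of 6 against 3 of 6 (exact p = 0.2, adjusted 0.501), although its ranks did not overlap. With the strongest 30000 peaks, 137 shared regions were tested among 8054, 19 passed the unadjusted threshold lower in DN migDC and 5 higher, where 7.76% and 4.16% of all tested regions did, and none passed after adjustment.

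By rank, 24 shared regions had every migDC2 library above every DN migDC library (3.64%) and 6 the reverse (0.909%). Over all 45318 regions called in at least 5 of 6 libraries of each subset these shares were 2.26% and 0.933%. The median rank was higher in migDC2 for 421 shared regions (63.8%), against 47.2% of the 45318. The 45318 were stronger, with a median rank of 61.1 against 31.0, and no set matched for strength was compared. Besides Cd40, Il1r1, Qsox2, Zeb2, S1pr1 and Socs3, the 24 included Bhlhe40, a basic helix-loop-helix transcription factor, whose region (chr6:108669431-108671243) ranked at medians of 64.8 and 28.9. The 6 were Pmfbp1, Efna5, Tmem150c, Sec24b and 2 regions with no gene. Bhlhe40, Tmem150c and Sec24b are named after their values were seen.

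The contrast between Cre-positive and Cre-negative libraries was not used by the rule. With subset as strata, none of the 5195 regions passed an adjusted p of 0.05 by the exact conditional test. At an unadjusted p under 0.05, 0.077% were higher and 0.077% lower in Cre-positive libraries. Here, too, an adjusted call needed many regions at the smallest possible p together, so its absence does not show that the genotypes are alike. None of the 20 shared regions tested passed the unadjusted threshold. Of the 20, 11 leaned higher in Cre-positive libraries and 1 lower, where 1836 and 1839 of all 5195 did. This lean was not stable. With 1 library left out it ran from 7 higher and 9 lower (without DN migDC Cre-negative 1) to 19 and 0 (without migDC2 Cre-negative 2). The 660 regions had 252 missing calls in the 6 Cre-negative libraries of both subsets (66 in migDC2 and 186 in DN migDC) and 217 in the 6 Cre-positive libraries (93 and 124). With the strongest 30000 peaks none of the 137 tested shared regions passed the unadjusted threshold, where 0.0993% of 8054 were higher and 0.0372% lower. Of the 137, 58 leaned higher in Cre-positive libraries and 45 lower, where 2993 and 2838 of all 8054 did. Missing calls are limited by the rule to 1 per subset, and they were uneven between libraries of a genotype. The fewest of the 660 were called in migDC2 Cre-positive 2 (572) and in DN migDC Cre-negative 1 and 2 (576 and 567). No genotype pattern is read from them. Among the strongest 30000 peaks, Cre-negative DN migDC libraries held 57, 60 and 63 of the 660 and Cre-positive ones 65, 73 and 76, without overlap. Over all regions these libraries held 31.9% to 32.9% and 31.4% to 32.4%, with overlap, and lists of equal length hold such shares close together. In migDC2 the counts were 81, 100 and 114 against 88, 108 and 115, with overlap. No test was made of these sums over the 660 regions.

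The calls of the germline migDC2 libraries had no part in the limits of the rule. Of the 660 regions 16.5% and 20.2% were called in the 2 WT libraries and 14.2% and 40.5% in the 2 IFNgr1-/- libraries, a mean of 22.8% ± 11.99 (SD, n = 4). Every one of these is below the share of all regions in the same library, which was 36.8% and 37.8% in WT and 32.8% and 44.4% in IFNgr1-/-. Regions shared by the 3 migratory subsets were called at 55.5% and 59.4% in WT and 47.8% and 74.9% in IFNgr1-/-. The germline lists are short and the shared regions weak, and list length and biology cannot be told apart here. Regions of migDC2 alone were called less, at 2.36% and 6.14% in WT and 0.157% and 20.2% in IFNgr1-/-, and none of the 131 regions of DN migDC alone was called in any of the 4.

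Among the shared regions 370 were called in no germline library, 114 in 1, 82 in 2, 51 in 3 and 43 in all 4. The 34 regions that met the rule at both list lengths were called at 70.6% and 64.7% in WT and at 79.4% and 97.1% in IFNgr1-/-. They were chosen among the stronger peaks of floxed migDC2. All regions called in at least 5 of 6 floxed migDC2 libraries gave 63.4% and 65.2% in WT and 56.8% and 76.4% in IFNgr1-/-. Of the 34, 15 were in all 4 germline libraries, 11 in 3, 5 in 2 and 3 in 1. Those in all 4 included Il1r1, Rasgrp1, Tns1, Grk3, Qsox2, Plxnd1, Vezt and Myo10, while Cd40, Shb, Tbx3 and Pmfbp1 were in 3 and Myo1e in 2. By genotype, 16 shared regions (2.42%) were called in both IFNgr1-/- and neither WT library, where 0.363% of all regions were, and 1 (0.152%) in both WT and neither IFNgr1-/- library, where 0.295% of all regions were. The IFNgr1-/- lists were the longest and the shortest of the germline lists, with 41759 and 32088 peaks, against 35262 and 35997 in WT. No test was made of 2 libraries against 2.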

How the data were processed

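Open chromatin was measured by Omni-ATAC-seq in 32 libraries. Bowtie2, Genrich and deepTools on mm10 are named per the submitters' processing notes; versions, settings and any Tn5 shift: not given in the sources used here. For each library the authors deposited 1 peak list, with a signal per peak (at least 200 in these lists) and a −log10 p-value. What the signal measures is not given in the sources used here, and whether it grows with peak width was not tested. Signal ranked peaks within a list and −log10 p broke ties. The lists hold no read counts, so depth is unknown.

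Regions, calls and members were rebuilt in Python 3.11.15 (numpy 2.4.6, pandas 2.3.3, scipy 1.17.1, matplotlib 3.10.9). Genes are protein-coding RefSeq genes of GRCm38.p6 (coordinates of mm10, no strand): an end within 1000 bp, otherwise the gene body, otherwise the nearest end within 50000 bp (distal). Starts, promoters and microRNAs came from RefSeq tables that are not complete. Per region, an exact conditional test compared libraries with a call among the strongest 20000 peaks (minimum of 3 calls and of 3 missing calls among 12), two-sided, with Benjamini-Hochberg adjustment at 0.05. It was tested on simulated data.

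Named genes are the 15 with most members, up to 4 per list, the 12 strongest members, members called in a test and 12 genes looked up throughout. Members and lists were chosen with earlier results of these data known. Equal list length, held-out libraries and rank separation were partly added after the data were seen.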

Additional observations from a re-analysis of the deposited data

Results flagged for a closer look

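Among 14 groups of libraries examined for a value far from the others, of which chance gives about 1 in 20, a single library stood out. In DN migDC Cre-positive 1, 2.58% of the 660 shared regions were among the strongest 20000 peaks, whereas the next highest of the 6 DN migDC libraries had 1.52%. This library also has the longest list (73627 peaks) and narrow peaks (median width 401 bp); their part in the value was not tested.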

How the results depend on the processing

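The number of shared regions depended most on list length and on the limits. It was 253 at equal list length, 156 under strict limits (6 of 6, 6 of 6 and 0 of 16), 1868 under loose limits (4 of 6, 4 of 6 and 2 of 16) and 1117 with lettered titles only, against 660. Overlap, consensus and width settings gave 648 to 675, and leaving out a library 660 to 881. No region passed the adjusted threshold in either exact conditional test under any alternative run (strongest 10000 or 30000 peaks, a minimum of 2, no strata, each library left out, lettered titles only): 0 in every case, and 0 with the replicate block, which paired 4 migDC2 with 4 DN migDC libraries by title number and the numbered ones within a genotype. With lettered titles only, 2 libraries per genotype and subset could not give an unadjusted exact conditional p under 0.05. The 6 pairs of the replicate block also set a floor on p. The 0 counts of these 2 runs therefore carry no weight. In the other runs, too, an adjusted call needed many regions at the smallest possible p together. Their 0 counts do not show that the subsets or genotypes are alike. Deviations of the lettered libraries correlated at 0.247, 0.044, 0.268 and 0.146 for the same number and at -0.004, 0.034, -0.007 and 0.081 for different numbers. With a pair under 0.1 and no label that states a shared source, the numbers were not taken to pair the samples.

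The mean share of shared regions among the strongest peaks was higher in migDC2 than in DN migDC by 1.29 percentage points at 20000 peaks, 0.253 at 10000, 5.35 at 30000 and 6.24 at the length of the shortest list, by 0.455 with numbered titles only, and by 1.10 to 1.52 when a library was left out. The mean germline share was 38.8% for the 156 strict regions, 13.1% at equal list length and 17.0% to 25.7% when a library was left out, against 22.8%. Gene ends took 4.39% within 500 bp, 11.1% within 2000 bp and 8.70% at equal list length. Gene bodies took 55.8% under strict limits. Distal regions took 21.8% under strict limits and 21.3% at equal list length. Depth is unknown, so what a missing call means is limited by list length.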

Other observations

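The same rule on chromosome X, which the set leaves out, found 16 of 1708 regions (0.937%). They included 2 each in the bodies of Sh3kbp1, an adaptor of receptor endocytosis, Slc9a7 and Zdhhc15, and 1 at an end of Foxo4, a forkhead transcription factor.

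Immune loci outside the lists also held shared regions and are named after their values were seen. Of 3 between Il2 and Il21, which encode T cell cytokines, all were called in 6 of 6 migDC2 and 5 of 6 DN migDC libraries and in none of the 16 others, with median ranks of 26.2 to 41.6 in migDC2 and 11.98 to 17.1 in DN migDC. Acod1, the enzyme that makes itaconate, had a region 20906 bp from its nearer end in all 12 libraries and all 4 germline libraries, with medians of 51.7 and 48.2. Il18 and Marco, a scavenger receptor, held 2 each, as did Cxcl13, the chemokine that attracts B cells. A region in the body of Nfkbiz, a regulator of NF-kB, ranked from 15.1 to 99.5 in migDC2 and from 0.91 to 25.1 in DN migDC.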
